A study of Homo sapiens with 4 samples.

Results

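Caveolae are flask-shaped pits of the plasma membrane. The genes of their coat were examined here in 4 RNA-seq libraries labelled as the human neuroblastoma line SH-SY5Y. The set was a fixed list of 9 genes, defined by name as the coat of the caveola with earlier results of these data known, out of 28058 genes in the deposited count table. It holds the caveolins CAV1, CAV2 and CAV3, the cavins CAVIN1, CAVIN2 and CAVIN3 (older symbols PTRF, SDPR and PRKCDBP), the ATPase gene EHD2 and the F-BAR protein genes PACSIN2 and PACSIN3. All 9 have a row in the table, and 7 had enough counts to be tested. The 2 control samples were untreated cells labelled SH-SY5Y. The 2 SWT samples were cells of the same label given shock wave treatment (SWT). The labels describe it as 300 impulses of 0.08 mJ/mm2 at 3 Hz. By the labels it was applied at 7 cm from the applicator to flasks in a water bath at 37 °C. RNA was isolated 6 h after treatment. The series' own design text names exosomes as the treatment, and no source used here decides between these accounts. All samples carry the label of 1 cell line. Separate cultures are not stated for the replicates, and the p-values then reflect the spread of these samples alone, part or all of which may be technical.

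As background, caveolins are hairpin membrane proteins that assemble with cholesterol into the caveolar scaffold, and cavins are soluble coiled-coil proteins that coat it from the cytosol. CAV1 and CAVIN1 are both needed to form caveolae outside striated muscle, and CAV3 takes the place of CAV1 in muscle. EHD2 forms rings at the caveolar neck and holds the pit at the membrane, and PACSIN2 bends membrane there. Caveolae flatten when membrane tension rises, which makes them a mechanosensitive structure, and they are typically abundant in fibroblasts, endothelium, adipocytes and muscle and sparse in neurons.

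CAV1 and its muscle paralog CAV3 sat at opposite ends of the measured range. Bases before a transcript start of 4 coat genes are shown so that abundant genes (CAV1, CAVIN2 and EHD2) and the gene without a count (CAV3) can be set side by side. Each run is read 5′ to 3′ on the gene's strand from RefSeq promoter windows (GRCh38.p14) and holds no annotated exon base of that gene. The runs of CAVIN2, EHD2 and CAV3 end just before the gene's annotated start, while that of CAV1 lies inside the annotated gene, between exons and before a later transcript start. CpG dinucleotides are in capitals.
CAV1 (chr7:116526112-116526276, + strand): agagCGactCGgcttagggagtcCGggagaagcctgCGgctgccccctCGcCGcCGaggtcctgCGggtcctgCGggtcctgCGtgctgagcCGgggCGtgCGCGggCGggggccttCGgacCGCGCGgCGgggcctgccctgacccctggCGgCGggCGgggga
CAVIN2 (chr2:191847256-191847338, - strand): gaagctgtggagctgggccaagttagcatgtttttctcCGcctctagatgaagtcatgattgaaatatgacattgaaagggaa
EHD2 (chr19:47713172-47713342, + strand): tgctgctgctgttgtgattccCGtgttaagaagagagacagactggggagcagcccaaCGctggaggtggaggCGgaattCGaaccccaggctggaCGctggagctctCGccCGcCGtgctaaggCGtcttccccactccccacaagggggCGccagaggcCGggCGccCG
CAV3 (chr3:8733552-8733799, + strand): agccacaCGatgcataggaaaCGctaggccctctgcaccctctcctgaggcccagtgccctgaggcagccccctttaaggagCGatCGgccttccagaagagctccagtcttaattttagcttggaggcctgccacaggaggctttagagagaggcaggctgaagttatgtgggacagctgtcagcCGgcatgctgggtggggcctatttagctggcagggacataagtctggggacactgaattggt
The CAV1 run held 23 CpG in 165 bases, and 5.65% of 27305 promoter windows held at least as many in the same stretch. The EHD2 run held 13 CpG in 171 bases (29.6% of windows held at least as many), the CAVIN2 run 1 in 83 bases (76.7%) and the CAV3 run 5 in 248 bases (64.9%). PACSIN2, whose run also lies inside its gene and is not printed, held 4 in 250 bases (69.9%). The CAV1 window is 1 of 3 listed for that gene, taken because its run before an annotated exon was the longest. The 27305 windows are the first listed of each gene. Each was counted over the same number of bases from its 5′ end, with no exon bases removed. The stretch compared in other windows thus need not end just before an annotated start, and the percentages are a rough guide only. The other CAV1 windows are not shown, so this run does not stand for the annotated start of CAV1.

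The libraries held 9888263 to 11686808 counts, and the 3 counts that a 0 allows correspond to 0.257 to 0.303 CPM (CPM are counts scaled to library depth, here with TMM factors). The label of a neuronal line was checked against marker genes. Of 15 noradrenergic neuroblastoma markers, 7 had no count in any library, PHOX2A, TH, DBH, CHGA, MYCN, DDC and SLC6A2, and the list summed to 75.6 to 84.4 CPM, led by HAND2 at 52.0 ± 2.23 CPM and GATA2 at 15.9 ± 2.43 CPM (SD, n = 4). Of 15 mesenchymal and fibroblast markers 11 reached 10 CPM in every library, led by VIM at 3251 ± 92.7 and COL1A1 at 3022 ± 272 CPM (SD, n = 4), and their sum was 12000.3 to 13497 CPM. Of 10 smooth muscle markers 5 reached 10 CPM in every library, led by CALD1 at 286 ± 11.8 and TAGLN at 76.2 ± 3.62 CPM (SD, n = 4). Another 3 stayed under 1 CPM in every library, 1 of them with no count. The list summed to 524 to 584 CPM, and its member DES is also on the heart muscle list. Markers of 2 other caveola-rich cell types were low: 6 of 12 endothelial markers stayed under 1 CPM in every library (sum 28.8 to 33.1 CPM, led by EGFL7 at 16.7 ± 2.01 and ROBO4 at 8.22 ± 0.671), and 8 of 10 adipocyte markers did (sum 26.5 to 32.0 CPM, led by PPARG at 26.3 ± 1.88 and LIPE at 2.48 ± 0.524), with ADIPOQ, LEP and CIDEC at 0. The noradrenergic list was thus low beside the mesenchymal and fibroblast list, which goes against the label. The identity of the cells was not tested, and SH-SY5Y is used here as the label only. In bulk RNA, the share of cells that express a gene and the RNA per cell cannot be told apart.

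CAV1, CAVIN1, CAVIN2 and EHD2 stood among the abundant transcripts. The main caveolin gene CAV1 (chromosome 7, 116524785 to 116561184, GENCODE 29 on GRCh38) had 8369 and 7688 counts in control replicates 1 and 2 and 7784 and 8859 in SWT replicates 1 and 2. Divided by exon length, CAV1 stood at 186 ± 6.26 CPM per kb (SD, n = 4), rank 142 of 16723 genes with a count and a length. CAVIN1 (chromosome 17, 42402452 to 42423517), the cavin that all caveolar coats need, followed at 154 ± 2.52 CPM per kb and rank 177. CAVIN2 (chromosome 2, 191834302 to 191847255), a cavin that binds phosphatidylserine, stood at 77.3 ± 1.89 CPM per kb and rank 505. EHD2 (chromosome 19, 47713343 to 47743134) stood at 48.8 ± 2.30 CPM per kb and rank 893. The order CAV1, CAVIN1, CAVIN2, EHD2 held in the sense that the lowest library of each gene lay above the highest library of the next.

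CAV2 and the PACSIN genes formed a lower tier. CAV2 (chromosome 7, 116287380 to 116508541), which needs CAV1 to leave the Golgi, stood at 15.2 ± 0.36 CPM per kb (SD, n = 4), and its annotated end lies 16243 bases before the start of CAV1 on the same strand. PACSIN3 (chromosome 11, 47177525 to 47186443) stood at 14.1 ± 1.02 CPM per kb, and its range of 13.3 to 15.5 overlapped that of CAV2, 14.9 to 15.7. PACSIN2 (chromosome 22, 42835412 to 43015145) was below both at 9.29 ± 0.633 CPM per kb. These levels divide by the union of all annotated exons. With the length of the longest transcript CAV2 rose to 31.9 CPM per kb, above PACSIN3 at 19.3 and PACSIN2 at 13.0. The order of the 9 genes stayed the same. Ranks among all genes moved, to 174 for CAV1, 325 for CAVIN1, 799 for CAVIN2 and 1232 for EHD2.

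**Figure D1:**
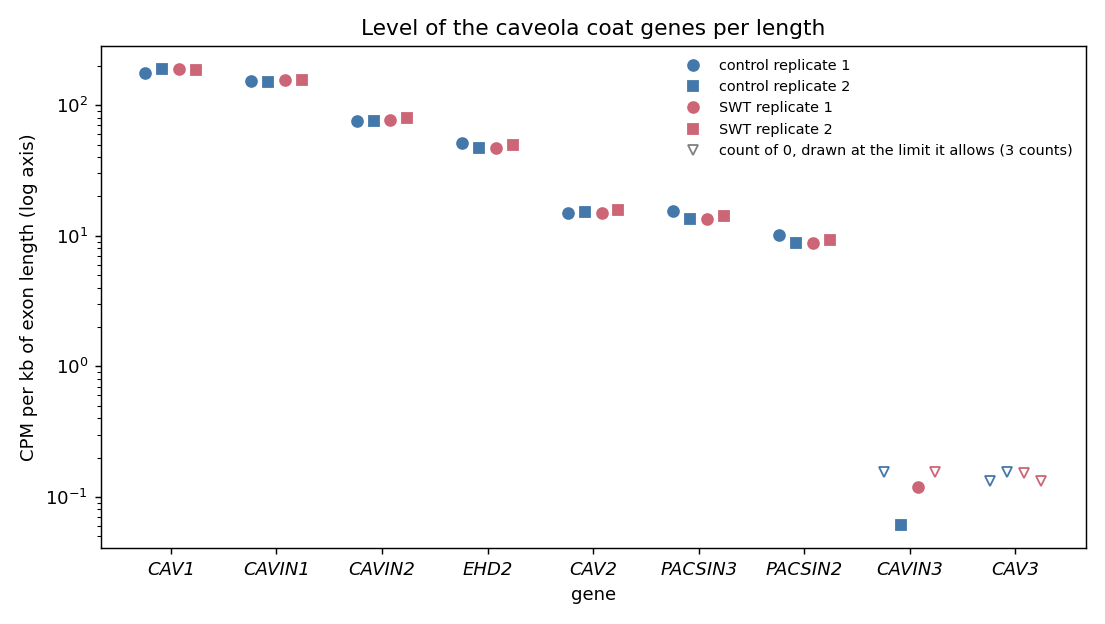
Level of the 9 caveola coat genes in each library, in CPM per kb of exon length on a log axis, ordered by mean; circles are replicate 1, squares replicate 2, blue control, red SWT, and open triangles mark a count of 0 at the limit of 3 counts. CAV1, CAVIN1, CAVIN2 and EHD2 lie above 46 CPM per kb in all 4 libraries, and CAV3 has a count in none.

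CAV3 and CAVIN3 were not seen at a level above counting noise. CAV3 (chromosome 3, 8733800 to 8841808), the muscle caveolin, had 0 counts in all 4 libraries. Against a floor of 3 counts per library, CAV1 was at least 1228-fold higher than CAV3 per kb in control replicate 2, and the bound was larger in the other libraries. CAVIN3 (chromosome 11, 6318946 to 6320647), a cavin that binds protein kinase C delta, had 0 and 1 counts in control and 2 and 0 in SWT. Over the 4 libraries CAVIN1 exceeded CAVIN3 by a per-kb ratio of 3718, from 25534 and 3 counts (95% exact interval 1272 to 18028, counting error only). Of the 10 nearest coding genes 5 had at least 200 counts in all, among them SMPD1 with 2607, and 5 had under 10. CAVIN3 shares 557 of its 1672 exon bases with the opposite-strand gene AC068733.3, and the other exon bases are not shared with it. AC068733.3 has no row under that name in the count table. How reads there were counted is not given in the sources used here. Whether the low count of CAVIN3 reflects little RNA or the counting was not tested.

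Shares within the caveolins, the cavins and the PACSIN pair varied little between libraries, and the share of CAV1 against CAVIN1 varied more. Of the reads of CAV1 and CAV2 together, CAV1 took 87.5% (86.8% to 88.2%) and 88.0% (87.3% to 88.7%) in control replicates 1 and 2, and 88.1% (87.4% to 88.8%) and 87.5% (86.8% to 88.1%) in SWT replicates 1 and 2. These 95% Clopper-Pearson intervals cover counting error only, and all 4 overlap. CAVIN1 made up 70.6%, 70.2%, 70.3% and 70.0% of the counts of the 3 cavins in the same order of libraries, and PACSIN2 52.1%, 52.4%, 52.3% and 52.0% of PACSIN2 and PACSIN3. For both, the interval of each library held the values of the other 3. These shares are of counts and do not divide by exon length. Per kb, PACSIN2 stood below PACSIN3, at a ratio of 0.655 to 0.664. Of CAV1 and CAVIN1 together, CAV1 took 55.1% (54.3% to 55.9%) and 57.3% (56.5% to 58.2%) in control replicates 1 and 2 and 56.6% (55.8% to 57.4%) and 55.8% (55.0% to 56.6%) in SWT replicates 1 and 2, so the intervals of the controls did not overlap and both SWT values lay between them. Per kb, the scaffold gene CAV1 exceeded the cavin gene CAVIN1 by 1.15 to 1.26 times and CAVIN1 exceeded CAVIN2 by 1.97 to 2.02 times. Relative to its size, the ratio of CAV1 to EHD2 varied most of the 6 ratios computed. It was 3.42 and 4.02 in control replicates 1 and 2 and 4.05 and 3.74 in SWT replicates 1 and 2. Control replicate 1 was thus lowest in it, and the SWT values lay on both sides of control replicate 2.

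The comparison of SWT with control asks which transcripts differed between treated and untreated samples. No caveola coat gene passed the test, in either direction, and 0 of the 12399 genes tested did (0%; edgeR quasi-likelihood test, adjusted p threshold 0.05). No tested member reached an unadjusted p under 0.05, against 715 of 12399 genes in edgeR, 116 of 17737 in DESeq2 and 721 of 12399 in limma-voom. DESeq2 and limma-voom also called 0 genes. Of the 7 tested members 4 lay above 0 and 3 below, and their log2 fold changes had a median of 0.027 and a range of -0.074 to 0.052. Over all genes tested 49.7% lay above 0 and the median was -0.00078. The adjusted p-values of the 7 members ran from 0.930 to 0.976. No member was called either where other settings in edgeR called genes, which they did for 0.355% of genes without a filter, 0.978% and 1.6% when control replicate 1 or 2 was left out, 0.346% and 0.135% when SWT replicate 1 or 2 was left out, 0.00807% with the replicate number as a block and 0.782% with crossed pairs as a block.

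Among the caveolins, CAV1 stood at 720 and 777 CPM in control replicates 1 and 2 and at 772 and 760 CPM in SWT replicates 1 and 2. Both SWT values lay between the controls. The log2 fold change was 0.033 with an SE of 0.051 (edgeR adjusted p = 0.957), with an approximate 95% interval that runs from a fold of 0.949 to 1.10. CAV2 stood at 103 and 106 CPM in control and 104 and 109 CPM in SWT, so the groups interleaved. Its log2 fold change was 0.027 with an SE of 0.062 (edgeR adjusted p = 0.976), with a fold interval of 0.930 to 1.12.

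For CAVIN1 and CAVIN2, both SWT libraries lay above both controls by small margins, while CAVIN3 was too low to be tested. CAVIN1 stood at 588 and 578 CPM in control and 592 and 601 CPM in SWT, a log2 difference of 0.034 with an SE of 0.049 (edgeR adjusted p = 0.952) and a fold interval of 0.952 to 1.10. CAVIN2 stood at 244.9 and 245 CPM in control and 250.1 and 258 CPM in SWT, a log2 difference of 0.052 with an SE of 0.055 (edgeR adjusted p = 0.930) and a fold interval of 0.956 to 1.12. These were the 2 members, of 7, whose SWT libraries lay above both controls, and 0 lay below both. Over all genes tested 17.3% lay above both controls and 18% below both, so the members' count is no result about them.

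The neck and membrane-bending genes were highest in control replicate 1. EHD2 stood at 203 and 185 CPM in control and 183 and 195 CPM in SWT, a log2 difference of -0.037 with an SE of 0.062 (edgeR adjusted p = 0.962) and a fold interval of 0.889 to 1.07. PACSIN2 stood at 46.4 and 40.3 CPM in control and 40.3 and 42.3 CPM in SWT, a log2 difference of -0.074 with an SE of 0.086 (edgeR adjusted p = 0.938) and a fold interval of 0.838 to 1.08. PACSIN3, whose protein is the PACSIN of muscle and lung, stood at 42.7 and 36.7 CPM in control and 36.8 and 39.0 CPM in SWT, a log2 difference of -0.069 with an SE of 0.090 (edgeR adjusted p = 0.941) and a fold interval of 0.836 to 1.09. In all 3 genes control replicate 1 was the highest library and SWT replicate 2 the second, and the groups overlapped. This order was not particular to them: FLNA and EHD1, described below, showed it too, while EHD4 and DLC1 did not. Control replicate 1 and SWT replicate 2 are also the 2 deepest libraries, with 11647603 and 11686808 counts. The share of G and C in the longest transcript was 61.6% for EHD2, 53.3% for PACSIN2 and 63.2% for PACSIN3. It was 46.2% for CAV1, 40.7% for CAV2, 43.2% for CAVIN2 and 59.9% for CAVIN1, in which control replicate 1 lay below both SWT libraries. The part of depth and base composition in these differences was not tested.

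**Figure D2:**
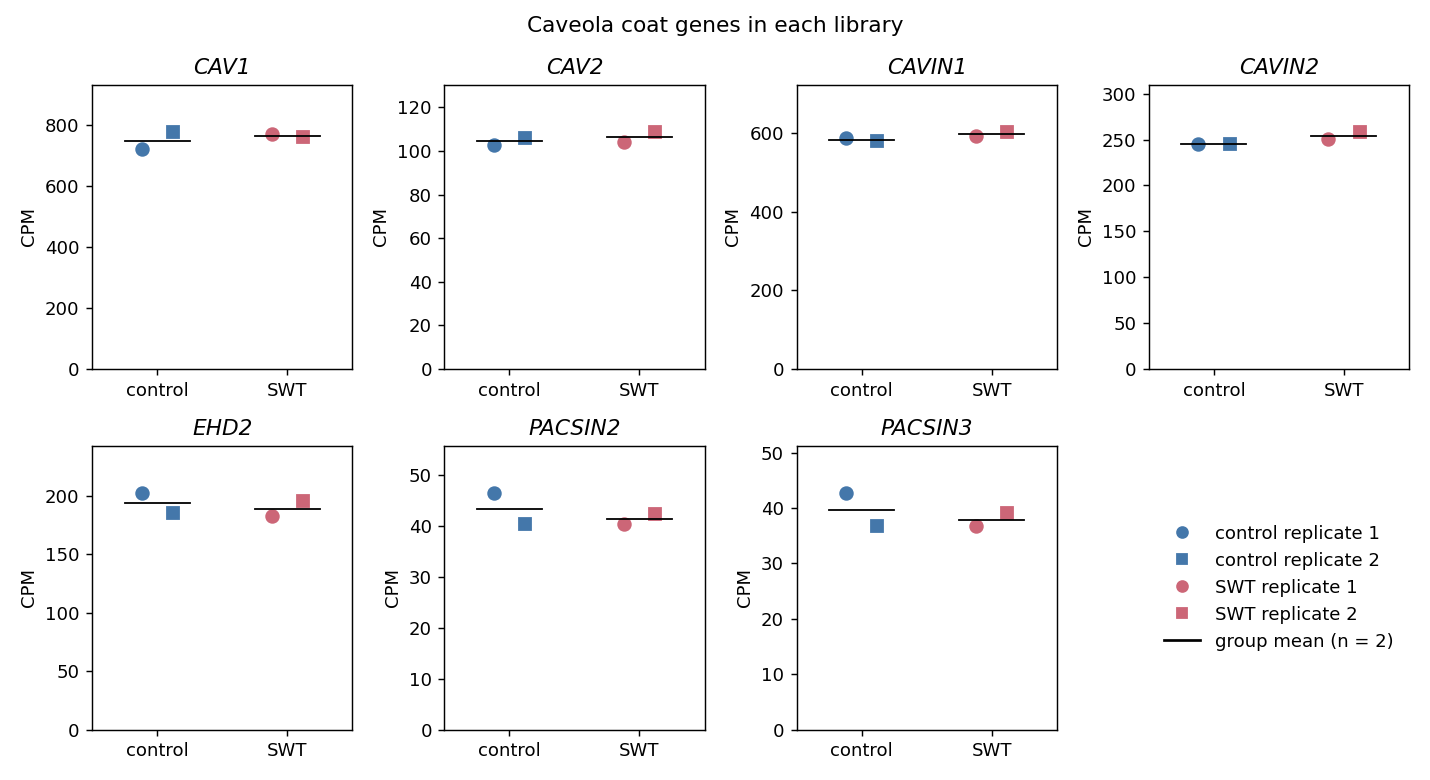
CPM of the 7 tested coat genes in each library, with control in blue, SWT in red, circles for replicate 1, squares for replicate 2 and bars for the mean of each group of 2; each axis starts at 0. The groups overlap in 5 of the 7 panels, and in CAVIN1 and CAVIN2 both SWT points lie slightly above both controls.

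The spread between replicates was as large as the difference between groups for most of these genes. The controls differed by 0.11 in CAV1, -0.13 in EHD2, -0.20 in PACSIN2 and -0.22 in PACSIN3 (log2, replicate 2 minus 1), each larger in size than the SWT difference of that gene. Between the highest and the lowest library CAV1 differed 1.08-fold, CAV2 1.06-fold, CAVIN1 1.04-fold, CAVIN2 1.05-fold, EHD2 1.11-fold, PACSIN2 1.15-fold and PACSIN3 1.16-fold. The median over 9285 tested genes with a mean of at least 10 CPM was 1.12-fold (quartiles 1.08 and 1.18). Leaving out control replicate 1 turned the direction of CAV1 (-0.020), EHD2 (0.030), PACSIN2 (0.037) and PACSIN3 (0.051). Leaving out SWT replicate 1 turned EHD2 (0.0081), and leaving out SWT replicate 2 turned CAV2 (-0.0041), while CAVIN1 and CAVIN2 stayed above 0 without any 1 library.

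**Figure D3:**
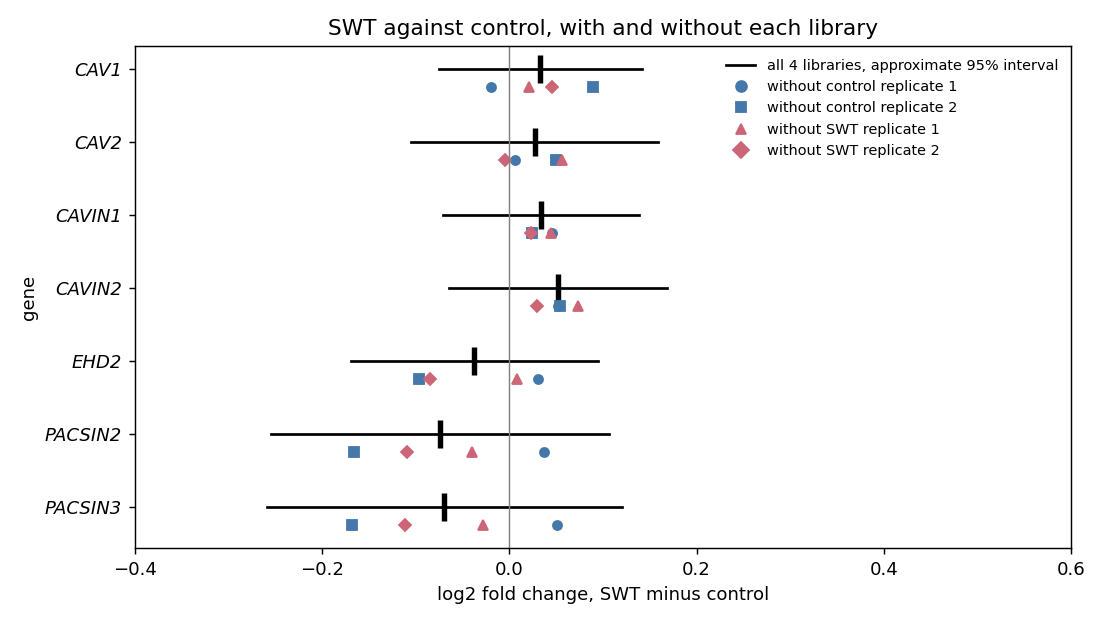
Log2 fold change of SWT minus control for the 7 tested coat genes: black ticks and lines are the value and approximate 95% interval with all 4 libraries, and coloured marks are the value without each library. Every interval spans 0, and the marks of CAV1, CAV2, EHD2, PACSIN2 and PACSIN3 fall on both sides of 0.

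Transcripts of heart muscle were unequal between libraries, and the muscle forms of the coat were set beside them. The 26 heart muscle markers, led by MYH6 and NPPA, summed to 253 and 4459 counts (21.8 and 450.4 CPM) in control replicates 1 and 2 and to 651 and 303 counts (64.6 and 25.99 CPM) in SWT replicates 1 and 2. CAV3 had 0 counts in control replicate 2 as elsewhere. CAVIN4 (chromosome 9, 100578079 to 100587906), the muscle cavin, had 9 and 20 counts in control and 7 and 8 in SWT, so it was highest in the library with the most heart transcripts. In SWT replicate 1, with 651 heart marker counts, CAVIN4 had 7, and in control replicate 1, with 253, it had 9. CAVIN4 did not have enough counts to be tested, and the part of the heart transcripts in its count was not tested. The 15 skeletal muscle markers, led by CKM and MYH3, summed to 2.84 and 17.0 CPM in control replicates 1 and 2. In SWT replicates 1 and 2 they summed to 5.36 and 3.86 CPM. CKM is also on the heart muscle list. Of the 15 markers 9 were at 0 in all libraries, MYOD1 and MYOG among them.

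**Figure D4:**
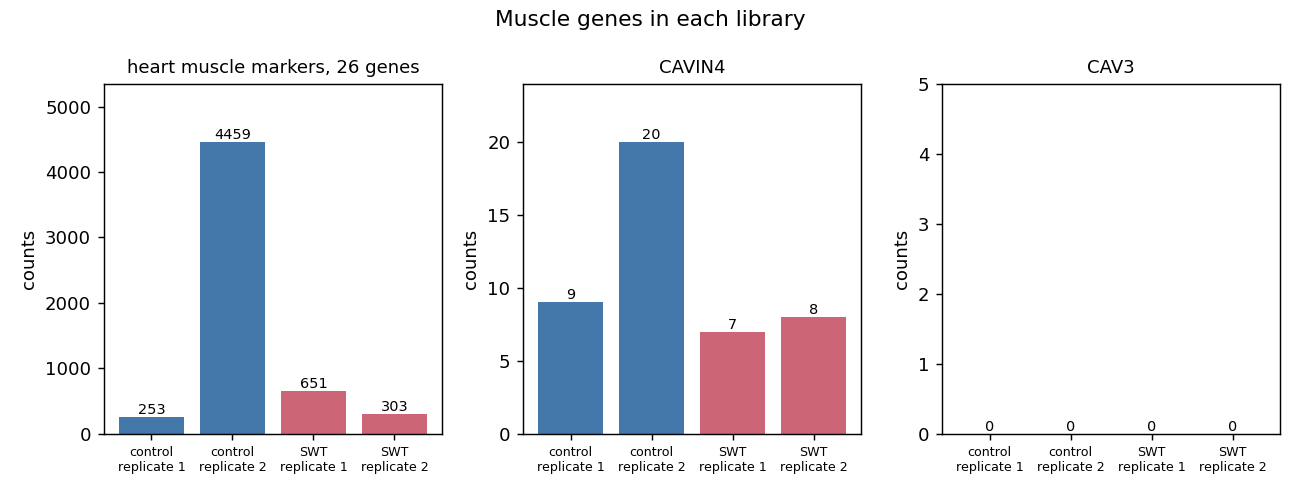
Counts in each library of the 26 heart muscle markers (left), the muscle cavin CAVIN4 (middle) and the muscle caveolin CAV3 (right), control in blue and SWT in red, each axis from 0. Control replicate 2 is highest for the heart markers (4459) and for CAVIN4 (20), and CAV3 is 0 throughout.

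Paralogs of EHD2 and of the PACSIN genes were compared with the members. EHD1, which acts in endosomal recycling, stood at 116 and 101 CPM in control and 112 and 115 CPM in SWT, and EHD4, of the same family, at 88.5 and 82.5 CPM and at 88.2 and 93.9 CPM. EHD3 was low, at 4.56 and 4.45 CPM in control and 3.47 and 4.55 CPM in SWT. EHD2 had 49.2% and 49.6% of the counts of the 4 EHD genes in control replicates 1 and 2 and 47.3% and 47.7% in SWT replicates 1 and 2. Both SWT shares lay below both controls, the 95% Clopper-Pearson intervals of all 4 libraries overlapped, and the difference was not tested. These shares do not divide by exon length. With that division EHD2 stood at 48.8 CPM per kb, EHD1 at 15.7, EHD4 at 11.2 and EHD3 at 0.918. PACSIN1, the neuronal PACSIN, had 1 count in control replicate 2 and 0 in the other libraries. Log2 fold changes were 0.063 for EHD1, 0.090 for EHD4 and -0.16 for EHD3 (edgeR adjusted p = 0.932, 0.910 and 0.95), and none passed.

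Genes that work with caveolae did not pass the test either. Of 18 such partners 13 were tested, 6 above 0 and 7 below, and their log2 fold changes had a median of -0.0067. The actin cross-linker gene FLNA, whose protein ties caveolae to stress fibres, was at 3389 and 2917 CPM in control and 3004 and 3252 CPM in SWT. The partners with the smallest p-values were DLC1, a GTPase-activating protein gene, at 0.18 (SE 0.080), EHD4, and the receptor gene ROR1 at 0.12 (SE 0.092), with edgeR adjusted p-values of 0.843, 0.910 and 0.910. DLC1 stood at 42.6 and 45.0 CPM in control and 47.2 and 51.9 CPM in SWT. NOS3, encoding the endothelial nitric oxide synthase held by caveolin, had 2 to 6 counts, and PLVAP, of the endothelial caveolar diaphragm, had 3 counts in control replicate 2 and 0 elsewhere.

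Genes of other membrane coats and scaffolds were tested beside the caveola genes. Of 10 flotillin and related SPFH genes, which scaffold other lipid domains, 8 were tested, 2 above 0 and 6 below, and their log2 fold changes had a median of -0.069. The smallest p-values belonged to STOML2 at -0.12, STOML1 at -0.13 and FLOT2 at -0.080 (edgeR adjusted p = 0.843, 0.893 and 0.912), so none passed. FLOT1 is listed at 0 in all 4 libraries, but so are most genes beside it: 7 of the 10 nearest coding genes had under 10 counts in all, among them the tubulin gene TUBB with 4. The 0 of FLOT1 is therefore given as listed and not as a level. Of 25 clathrin coat and adaptor genes 23 were tested, 15 above 0 and 8 below, with a median of 0.020. BIN1, encoding a membrane-bending BAR protein, stood at -0.18, FCHO2 at 0.20 and the AP-2 subunit gene AP2S1 at -0.10 (edgeR adjusted p = 0.838, 0.867 and 0.870), and none passed with all 4 libraries. Without control replicate 2, BIN1 stood at -0.22 and passed (edgeR adjusted p = 0.0293), while over its other alternatives the adjusted p was 0.0505 with crossed pairs as a block and higher elsewhere. The clathrin heavy chain gene CLTC stood at 72.8 CPM per kb, below CAV1 and CAVIN1 on the same scale.

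The genes whose profile over the 4 libraries lay closest to that of CAV1 were TPX2, TMED10, UBTD2, NARS and PLP2, with root mean square distances of 0.0024, 0.0026, 0.0041, 0.0048 and 0.0054 on the log2 CPM scale after centring each gene. With 4 libraries and a CAV1 profile that spans 1.08-fold, this is a description of these samples alone. TPX2, for example, stood at 288 and 310.3 CPM in control and 309.6 and 303 CPM in SWT, the same order of libraries as CAV1.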

How the data were processed

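Poly(A) RNA of 2 control and 2 SWT samples was sequenced after a strand-marking mRNA library preparation, according to the labels. The authors deposited raw counts per gene symbol (28058 genes) and a table of log2 values (17151 genes) in which the controls differ by less than in log2 CPM for 99.8% of 12179 tested genes. Trimmomatic 0.36, FastQC 0.11.5, STAR 2.5.3a, HTSeq, DESeq2 and hg38 are named in the submitters' processing notes, with no role. Not given in the sources used here are the strand setting and the annotation used in counting.

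The test on counts was that of edgeR 4.0.16 under R 4.3.3 (TMM, filterByExpr with the group, quasi-likelihood F-test, Benjamini-Hochberg over 12399 genes). Standard errors are the absolute log2 fold change over the root of F, and 95% intervals use a t quantile, so both are approximate. The fit was tested on simulated data. Depth was 9888263 to 11686808 counts. Exon lengths and coordinates are from GENCODE 29, matched by symbol for 91.6% of genes. RefSeq promoter windows matched 6 of 9 members. DESeq2 1.42.0, limma 3.58.1, other scalings and filters, a replicate block and leaving out each library were alternatives.

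The members and lists were chosen with earlier results of these data known. All members and their paralogs are named, then the 3 genes with the smallest p of each list around the caveola, the 2 highest genes of each cell type list and the 5 genes closest to CAV1. FLNA, NOS3, PLVAP, CLTC, SMPD1, TUBB and the genes named as at 0 were chosen after their values were seen. The numbers do not pair the samples by any label. The 2 libraries of a group differed by more than sampling noise (chi-square per degree of freedom 3.66 in control and 1.68 in SWT). A noradrenergic marker of the original list is not reported here.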

Additional observations from a re-analysis of the deposited data

How the results depend on the processing

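None of the 7 tested coat genes passed under any alternative run. Over the runs with all 4 libraries their lowest adjusted p was 0.791 in edgeR (CAVIN2 with crossed pairs as a block). CAVIN3, too low for the main test, was not followed over the alternatives. With all 4 libraries, the 7 tested members kept their direction in 63 of 63 values, which reuse these libraries and are not separate checks. With 1 library left out they did in 22 of 28: ranges were -0.020 to 0.089 for CAV1, -0.0041 to 0.056 for CAV2, 0.023 to 0.046 for CAVIN1, 0.030 to 0.073 for CAVIN2, -0.096 to 0.030 for EHD2, -0.17 to 0.037 for PACSIN2 and -0.17 to 0.051 for PACSIN3. Of the other genes, EHD1 ranged from -0.026 to 0.17, EHD3 from -0.37 to 0.012, FLOT2 from -0.16 to 0.014 and ROR1 from -0.0025 to 0.27. Over all genes, edgeR called 20 higher and 43 lower without a filter, and 2 to 106 higher and 15 to 97 lower with each library left out, where a library left alone in its group is taken to vary as the other group does. The replicate block gave 0 higher and 1 lower gene; the deviations of same-numbered samples correlated at -0.264, so the numbers are not taken to pair the samples. A crossed pairing used as a block, added after the data were seen, gave 55 higher and 42 lower. Of the genes named from the lists around the caveola, FLNA, CLTC, NOS3, PLVAP, CAVIN4, PACSIN1 and FLOT1 were not followed over the alternatives. Among those that were followed, BIN1 alone passed, without control replicate 2 (-0.22). The cause of these changes was not tested. With the longest transcript as length, levels were 237 CPM per kb for CAV1, 31.9 for CAV2, 53.4 for EHD2, 13.0 for PACSIN2 and 19.3 for PACSIN3, since that length is shorter. With 2 samples a group, changes in these genes smaller than the intervals given could not be seen.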
